A study of Mus musculus with 10 samples.

Results

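Transcriptomes of sorted brain cells were compared between mice in which neurons lose TDP-43 and mice that keep it. One group, cKO-GFP, was TDP-43flox/flox::CamKIIcre/- mice that received AAV-FLEX-GFP in the dentate gyrus, and the other, NC-GFP, was CamKIIcre/- mice that received the same virus, so both carried the Cre allele and the reporter. The CamKII promoter that drives this Cre is active mainly in excitatory neurons of the forebrain, and the FLEX cassette expresses GFP where Cre has acted. GFP-positive cells were sorted 1 month after injection, and each library came from a pool of 3 to 4 animals. The comparison used 6 of the 10 libraries of the series, cKO-GFP 1 to 3 and NC-GFP 1 to 3, chosen by their labels. The other 4 came from TDP-43flox/flox::CamKIIcre/- mice given AAV-FLEX-TDP-43mNLS-GFP and are used only for levels set side by side. All genes that passed a low-count filter were tested, 18699 of 55487.

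TDP-43, encoded by Tardbp, is a nuclear RNA-binding protein that binds UG-rich stretches, represses cryptic exons, and shapes the splicing and stability of many neuronal transcripts. Its loss from the nucleus and its aggregation in the cytoplasm are the hallmark of most amyotrophic lateral sclerosis and of a large group of frontotemporal dementias. Interferon-gamma, a cytokine of T and natural killer cells, is a classic inducer of MHC class II genes in microglia and macrophages.

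The libraries held 25404119 to 29204293 estimated counts in cKO-GFP and 17164188 to 26310775 in NC-GFP, with 10.9% to 13.5% from mitochondrial genes over the 6. The 15 mature oligodendrocyte markers summed to 1794 to 4286 TPM in cKO-GFP and 2466 to 5186 TPM in NC-GFP, and the 14 microglia markers to 3390 to 4594 TPM and 3130 to 4294 TPM. The 15 neuron markers summed to 44.0 to 87.9 TPM in cKO-GFP and 46.1 to 68.8 TPM in NC-GFP, below the 2 glial sums in every library, so the markers of the cells in which the Cre driver acts were not the leading ones in these libraries. Y-linked Ddx3y was read in all 6 libraries, at 75.5 to 83.8 CPM in cKO-GFP and 74.8 to 94.7 CPM in NC-GFP, while Xist, the X-inactivation RNA, reached 12.35 CPM in cKO-GFP 2 and at most 0.241 CPM in the other 5. In bulk libraries fewer cells of a type and less RNA per cell cannot be told apart, here and in every comparison that follows.

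Tardbp itself had 118, 119 and 104 CPM (read counts scaled to library size) in cKO-GFP 1 to 3, against 142, 126 and 120 CPM in NC-GFP 1 to 3. The log2 fold change of −0.19 ± 0.13 (SE) did not pass the test (adjusted p = 0.458). Whole-gene counts do not check the genotype, because the sources used here do not give the deleted exons, and reads outside them would still be counted.

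Across all genes tested, 754 passed an adjusted p of 0.05, which is 4.03%. Of these 278 were higher in cKO-GFP (1.49% of genes tested) and 476 were lower (2.55%), while the median log2 fold change of all genes was 0.01. These shares are the background for the list counts that follow. The count moved with single libraries. Leaving out NC-GFP 1, 2 or 3 gave 320, 262 or 197 calls, and leaving out cKO-GFP 2 or cKO-GFP 3 gave 2099 or 455. In a fit of all 10 libraries 333 genes were called. Calls held in all 6 leave-one-out fits for 183 genes, 28 higher and 155 lower. Of 194 genes named by a rule set out below, 104 were no longer called without NC-GFP 3. Gene lists held 83 of the 278 rising and 140 of the 476 falling genes.

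**Figure D1:**
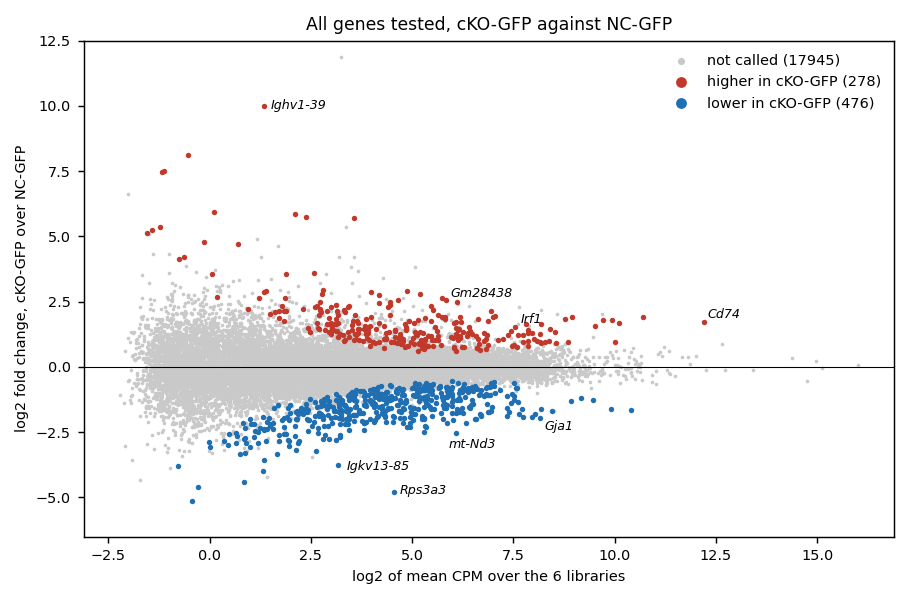
Each point is 1 of 18699 genes, with the log2 of its mean CPM over the 6 libraries on the horizontal axis and its log2 fold change, cKO-GFP over NC-GFP, on the vertical axis. Red points are the 278 genes called higher in cKO-GFP and blue points the 476 called lower, and called genes of either direction lie at all expression levels above the lowest.

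Many genes of MHC class II presentation and many induced by interferon-gamma rose. Of 27 genes of antigen presentation and the immunoproteasome, 16 rose and none fell, with a median log2 fold change of 0.97, and of 20 interferon-inducible GTPases, 16 rose and none fell, with a median of 1.25. The background was 1.49% of genes called higher, and the median of all genes was 0.01. Of 50 genes of interferon signalling and type I response, 4 rose and 1 fell, and 42 had a positive log2 fold change. Their median was 0.30, and 15 were higher and 1 lower at an unadjusted p under 0.05. Isg15 and Ifit1, which answer to type I interferon, did not pass the test. Isg15 had 47.8, 18.1 and 40.6 CPM in cKO-GFP and 43.6, 30.2 and 23.4 CPM in NC-GFP (adjusted p = 0.871), and Ifit1 had 157, 75.0 and 91.2 CPM in cKO-GFP and 128, 106 and 108 CPM in NC-GFP (adjusted p = 0.885). Oas2, an antiviral RNA sensor, fell by 0.90 ± 0.15 on the log2 scale (adjusted p = 0.0109), a call that was lost without NC-GFP 1 (adjusted p = 0.0625) or NC-GFP 3 (adjusted p = 0.0730).

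Promoter sequence is shown for 4 of the rising interferon-responsive genes, to let the response elements be seen. Each stretch runs from 150 to 21 bases before the RefSeq transcription start (GRCm38.p6), 5′ to 3′ on the strand of the gene. Capitals mark a match to the ISRE letters (GAAA, any 2 bases, GAAA) or the GAS letters (TTC, any 3 bases, GAA) on either strand, and adjoining or overlapping matches run together.
Irf1, chr11:53769864-53769993, plus strand, GAS: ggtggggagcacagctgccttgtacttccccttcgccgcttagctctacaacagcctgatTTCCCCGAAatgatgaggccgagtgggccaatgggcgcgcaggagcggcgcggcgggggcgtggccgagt
Tgtp1, chr11:48992267-48992396, minus strand, GAS and ISRE: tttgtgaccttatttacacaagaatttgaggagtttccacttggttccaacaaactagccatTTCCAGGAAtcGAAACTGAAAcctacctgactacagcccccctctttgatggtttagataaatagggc
Socs1, chr16:10785557-10785686, minus strand, ISRE in 2 overlapping matches: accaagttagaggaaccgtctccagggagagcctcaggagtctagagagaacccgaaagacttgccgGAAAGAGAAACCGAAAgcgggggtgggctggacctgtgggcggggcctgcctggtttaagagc
Gbp3, chr3:142559894-142560023, plus strand, ISRE in 2 overlapping matches on the opposite strand: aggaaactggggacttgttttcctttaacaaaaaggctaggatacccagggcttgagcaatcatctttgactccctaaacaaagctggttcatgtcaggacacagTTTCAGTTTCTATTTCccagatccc

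The ISRE letters stood in the 250 bases before the start of 9 of the 10 GTPase genes with a RefSeq promoter entry, against 406 of 12002 tested genes with an entry (3.38%). For the GAS letters the counts were 6 of those 10 GTPase genes, against 861 of 12002 (7.17%). Among all genes called higher, 27 of 209 promoters held the ISRE letters (12.9%) and 26 held the GAS letters (12.4%). Among genes called lower the shares were 3.02% and 8.72%. Antigen presentation genes held the ISRE letters in 3 of 21 promoters, while the letters CCAAT, searched after the data were seen, stood in 16 of those 21, against 40.3% of all tested genes with an entry. These matches describe letters in a window and say nothing of binding.

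At the head of the class II genes, Ciita (ENSMUSG00000022504.10, chr16:10480059-10528418, plus strand), the master transactivator of class II transcription, had 158, 190.4 and 250.3 CPM in cKO-GFP and 36.3, 51.7 and 48.2 CPM in NC-GFP. Every cKO-GFP library lay above every NC-GFP library, as for 12.8% of all genes tested, and the log2 fold change was 2.14 ± 0.20 (adjusted p = 0.000768). The call held with each library left out in turn, and ended in the fit of all 10 libraries (adjusted p = 0.0885).

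The class II chains were higher as well. H2-Ab1, a beta chain of the peptide-presenting dimer, had 2315, 1853 and 3677 CPM in cKO-GFP and 541, 843 and 712 CPM in NC-GFP, a log2 fold change of 1.90 ± 0.29 (adjusted p = 0.00617). H2-Eb1, the beta chain of the second dimer, had 1119, 961 and 1799 CPM in cKO-GFP and 297, 459.7 and 368 CPM in NC-GFP, a log2 fold change of 1.79 ± 0.27 (adjusted p = 0.00620). Cd74, the invariant chain that guides class II dimers to the endosome, had 5823, 5955 and 9937 CPM in cKO-GFP and 1587, 2659 and 2319 CPM in NC-GFP. The groups overlapped for none of the 3, and cKO-GFP 3 held the highest value each time. The alpha chain H2-Aa rose by 1.70 ± 0.26 and the peptide-loading chaperones H2-DMa and H2-DMb1 by 1.29 ± 0.20 and 1.72 ± 0.30 on the log2 scale. Without NC-GFP 3 the calls of H2-Ab1, H2-Eb1, H2-Aa and Cd74 ended, with adjusted p of 0.0646, 0.0658, 0.0678 and 0.0882, and those of H2-DMa and H2-DMb1 with 0.0550 and 0.0758. Without NC-GFP 1 those of Cd74 and H2-DMa ended as well (adjusted p = 0.0627 and 0.0556). In the 10-library fit these 6 had adjusted p of 0.0664 to 0.106.

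Class I genes were called in part. The heavy chains H2-K1 and H2-D1 and their partner B2m did not pass the test, with log2 fold changes of 0.73 ± 0.22, 0.57 ± 0.20 and 0.49 ± 0.23. The parts that cut and load their peptides did, namely the immunoproteasome subunits Psmb8, Psmb9 and Psmb10, the transporters Tap1 and Tap2, and Tapbpl, a peptide editor that had 49.6, 38.03 and 56.1 CPM in cKO-GFP and 16.5, 21.1 and 19.7 CPM in NC-GFP (log2 fold change 1.33 ± 0.19, adjusted p = 0.00400). Tapbpl was called with each library left out and in the 10-library fit, whereas each of the other 5 lost its call in 3 or more of the 6 leave-one-out fits. H2-K1 and H2-D1 were called by the DESeq2 test (adjusted p = 0.00726 and 0.0114) and by voom (0.0237 and 0.0343). Without cKO-GFP 2, edgeR called H2-K1, H2-D1 and B2m (adjusted p = 0.0113, 0.0331 and 0.0347). All 27 genes of the list had a positive log2 fold change, so no division by role was shown. Across the list of 27, calls numbered 6, 8 and 2 without NC-GFP 1, 2 and 3, and 10, 26 and 12 without cKO-GFP 1, 2 and 3. In the 10-library fit 7 of 27 were called.

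The interferon-inducible GTPases, which attack the vacuoles of intracellular pathogens, rose across the Gbp and Irg families. Tgtp1 had 215, 195 and 221 CPM in cKO-GFP and 52.5, 63.2 and 48.5 CPM in NC-GFP, a log2 fold change of 1.94 ± 0.15 (adjusted p = 0.000386). Gbp10 had 246, 167 and 191 CPM in cKO-GFP and 54.2, 65.6 and 42.5 CPM in NC-GFP, a log2 fold change of 1.90 ± 0.20 (adjusted p = 0.00124). Ifi47 had 148, 102 and 127 CPM in cKO-GFP and 49.8, 46.8 and 47.5 CPM in NC-GFP, a log2 fold change of 1.38 ± 0.16 (adjusted p = 0.00146). The 3 calls held with each library left out, and the groups did not overlap. By symbol, 10 of 11 tested Gbp genes rose, with a median log2 fold change of 1.66. Mx1 and Mx2, which answer to type I interferon, did not pass the test, with log2 fold changes of −0.35 ± 0.26 and −0.39 ± 0.23. Gbp and Tgtp genes have near-identical neighbours, so counts between copies are uncertain. Calls in the list of 20 numbered 9, 9 and 7 without NC-GFP 1, 2 and 3, 11, 18 and 14 without cKO-GFP 1, 2 and 3, and 14 in the 10-library fit.

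Several regulators of this response also rose. Irf1, the transcription factor that acts on Ciita and Gbp promoters, had 303, 215 and 308 CPM in cKO-GFP and 78.8, 110.1 and 96.9 CPM in NC-GFP, a log2 fold change of 1.53 ± 0.19 (adjusted p = 0.00240). Socs1, the feedback inhibitor of Janus kinases, had 20.7, 15.03 and 21.6 CPM in cKO-GFP and 4.86, 5.89 and 3.53 CPM in NC-GFP, a log2 fold change of 2.00 ± 0.26 (adjusted p = 0.00275). Batf2, a partner of Irf1, rose by 1.55 ± 0.21 on the log2 scale (adjusted p = 0.00390). Of the 50 genes of interferon signalling and type I response, 4 rose and Oas2 alone fell, against 1.49% and 2.55% of all genes tested. Of these 50, 42 had a positive log2 fold change, with a median of 0.30 for the list. At an unadjusted p under 0.05, 15 were higher and 1 lower. In the list of 50, calls numbered 3, 4 and 3 without NC-GFP 1, 2 and 3 and 4, 17 and 5 without cKO-GFP 1, 2 and 3. The receptor chain Ifngr1 did not pass the test, at 167, 128 and 181 CPM in cKO-GFP and 154, 184 and 179 CPM in NC-GFP (log2 fold change −0.12 ± 0.16).

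Several genes outside the lists, chosen after their values were seen, belong beside these. Ifng, which encodes interferon-gamma itself, had 7.48, 11.1 and 25.2 CPM in cKO-GFP and 3.82, 2.77 and 1.79 CPM in NC-GFP, a log2 fold change of 2.37 ± 0.47 (adjusted p = 0.0236). Its call ended without NC-GFP 1, 2 or 3 (adjusted p = 0.0635, 0.110 and 0.127), without cKO-GFP 3 (0.0590) and in the 10-library fit (0.214). Cd274, the checkpoint ligand PD-L1, had 409, 253 and 352 CPM in cKO-GFP and 117, 138 and 125 CPM in NC-GFP, a log2 fold change of 1.42 ± 0.19 (adjusted p = 0.00342) that held in all of these fits. Myof, a ferlin of membrane repair, rose by 2.49 ± 0.31 and the transglutaminase Tgm2 by 1.76 ± 0.23 on the log2 scale, with adjusted p of 0.00275 and 0.00319. Il12rb1, a receptor chain for interleukins 12 and 23 that the naming rule picked, had 102, 77.3 and 84.7 CPM in cKO-GFP and 24.9, 24.0 and 25.9 CPM in NC-GFP, a log2 fold change of 1.82 ± 0.15 (adjusted p = 0.000424).

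Complement genes rose in part, 4 of 19 with none falling and a median log2 fold change of 0.62, against 1.49% of all genes called higher. Serping1, the C1 inhibitor that restrains the classical pathway, had 81.3, 68.7 and 72.5 CPM in cKO-GFP and 13.4, 17.2 and 12.9 CPM in NC-GFP. Its log2 fold change of 2.35 ± 0.17 (adjusted p = 0.000386) had the smallest p among rising genes. The others were the C1 protease C1ra, the central component C3 and Cd59a, an inhibitor of the membrane attack complex, and each of them lost its call without NC-GFP 3 (adjusted p = 0.0577, 0.153 and 0.0515). Without NC-GFP 1 or 2 the calls of C3 (adjusted p = 0.177 and 0.145) and Cd59a (0.0607 and 0.0655) ended too, and that of C3 also without cKO-GFP 1 or 3 (0.125 and 0.139). The list held 2, 2 and 1 without NC-GFP 1, 2 and 3 and 4, 9 and 3 without cKO-GFP 1, 2 and 3.

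**Figure D2:**
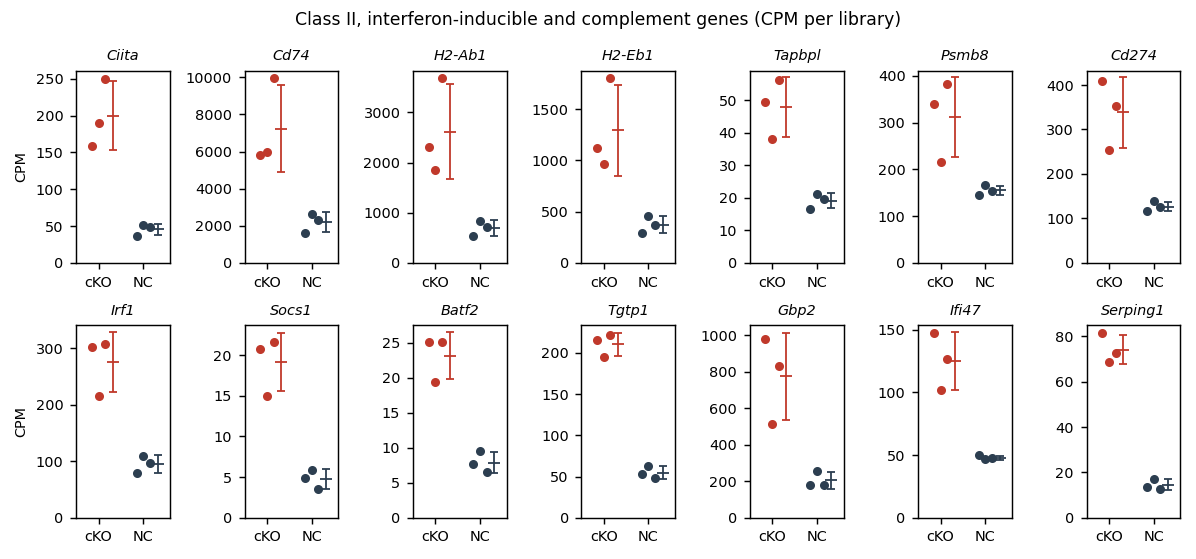
Each panel shows 1 gene, with CPM from 0 on the vertical axis, the 3 cKO-GFP libraries (cKO) in red on the left, the 3 NC-GFP libraries (NC) in dark grey on the right, and the mean with its SD beside each group. The 14 genes were picked from those called higher. In every panel the lowest red point lies above the highest grey point, as for 12.8% of all genes tested. In the Ciita panel the red points span 158 to 250.3 CPM against 36.3 to 51.7 CPM.

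Some markers of immune cells other than microglia were higher too. Over all genes tested 1.49% were called higher. T and B lymphocyte markers summed to 202 to 538 CPM in cKO-GFP and 95.4 to 194 CPM in NC-GFP, and 4 of 15 rose, among them Cd8a at 16.6, 57.0 and 82.6 CPM in cKO-GFP and 7.22, 7.10 and 6.39 CPM in NC-GFP (log2 fold change 2.91 ± 0.55, adjusted p = 0.0361). Cd8b1 and Trbc2 rose as well. None of the 15 was at 0 in all libraries, no call of the list held without NC-GFP 1, 2 or 3, without cKO-GFP 3 or in the 10-library fit, and Cd8a had an adjusted p of 0.123, 0.135 and 0.174 without NC-GFP 1, 2 and 3, 0.0761 without cKO-GFP 2 and 0.0835 without cKO-GFP 3. Lists added after the data were seen gave 513 to 827 CPM in cKO-GFP and 316 to 331 CPM in NC-GFP for 10 monocyte markers. Sums were 326 to 401 CPM and 278 to 301 CPM for 12 dendritic cell markers. For 10 border macrophage markers, 9 of them tested, they were 250.1 to 298 CPM and 155 to 201 CPM. In each of these 3 lists 1 member was called higher and none lower. Another added list, of 11 natural killer and plasma cell markers, summed to 842 to 2654 CPM in cKO-GFP and 355 to 2702 CPM in NC-GFP, and the groups overlapped. None of the 11 was called by edgeR on all 6 libraries or by voom, 3 were higher at an unadjusted p under 0.05, and 3 were called by the DESeq2 test, 1 by edgeR without NC-GFP 3 and 3 without cKO-GFP 1. The 14 microglia markers summed to 8906 to 12880 CPM in cKO-GFP and 8907 to 11680 CPM in NC-GFP, and only Gpr34 was called, lower by 0.84 ± 0.19 on the log2 scale, a call that ended without NC-GFP 1, 2 or 3 (adjusted p = 0.0859, 0.157 and 0.176) or cKO-GFP 3 (0.0903). The part of these cells in the rise of the class II, GTPase and complement genes was not tested.

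Lgals3 and Lyz2, genes of activated phagocytes, were the 2 risers of 25 on the activated microglia and lysosome list, against 1.49% of all genes called higher. Lgals3, a galectin, had 71.7, 68.1 and 112 CPM in cKO-GFP and 16.3, 19.8 and 30.2 CPM in NC-GFP, a log2 fold change of 1.93 ± 0.27 (adjusted p = 0.00398) that held in every leave-one-out fit. Lyz2, lysozyme of myeloid cells, rose by 1.81 ± 0.35 on the log2 scale, and its call ended without NC-GFP 1, 2 or 3 (adjusted p = 0.110, 0.0939 and 0.117). Of 47 chemokines, cytokines and receptors, Tnf rose and Cxcl14 and Il18 fell, where 4.03% of all genes tested were called in either direction. The call of Tnf ended with any 1 of the 6 libraries left out (adjusted p of 0.0554 to 0.156). That of Il18 held only without cKO-GFP 2, with 0.0623 to 0.176 in the other 5. The interferon-gamma-induced chemokine Cxcl9 had 369, 79.3 and 446 CPM in cKO-GFP and 98.8, 103 and 85.0 CPM in NC-GFP and did not pass (adjusted p = 0.210), with cKO-GFP 2 below all 3 NC-GFP libraries.

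Falling genes included matrix, receptor and signalling genes in lists other than the astrocyte markers. These lists share genes with the markers, among them Slc1a2 and Slc1a3 of the glutamate genes and Sox9 of the Sox symbols. Their counts are therefore not separate from the marker fall. Astrocyte markers summed to 1355 to 2166 CPM in cKO-GFP and 4701 to 5701 CPM in NC-GFP, with none at 0, and 15 of 16 fell, with a median log2 fold change of −1.62, against 2.55% of all genes called lower. The gap junction gene Gja1 stood at 112, 126 and 113 CPM in cKO-GFP and 403, 489 and 468 CPM in NC-GFP. The groups that follow fell together with these markers, and the part of the marker fall in them was not tested.

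Fut9 (ENSMUSG00000055373.8, chr4:25609332-25800244, minus strand), the fucosyltransferase that builds the Lewis X epitope, had the smallest p of all genes. It had 13.2, 13.8 and 14.04 CPM in cKO-GFP and 64.7, 65.5 and 69.1 CPM in NC-GFP, with little spread within either group, and fell by 2.28 ± 0.14 on the log2 scale (adjusted p = 0.000284). St6galnac5, a sialyltransferase of gangliosides, fell by 2.13 ± 0.24 (adjusted p = 0.00145). They were the only calls among 28 fucosyl- and sialyltransferases, where 4.03% of all genes tested were called in either direction. The median log2 fold change of the 28 was −0.07. Fam20a, a secreted pseudokinase that pairs with the kinase Fam20c, had 7.54, 8.82 and 9.43 CPM in cKO-GFP and 35.1, 39.7 and 37.0 CPM in NC-GFP and fell by 2.12 ± 0.17 on the log2 scale (adjusted p = 0.000396).

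Proteoglycan cores of brain matrix fell, 6 of 26, against 2.55% of all genes tested called lower. Cd44, the hyaluronan receptor, was the 1 riser and kept its call in 2 of the 6 leave-one-out fits. Gpc5, a glypican, had 11.2, 18.1 and 11.2 CPM in cKO-GFP and 59.6, 77.4 and 64.8 CPM in NC-GFP and fell by 2.32 ± 0.22 on the log2 scale (adjusted p = 0.000768). Ptprz1, a receptor phosphatase carrying chondroitin sulfate, had 98.4, 136 and 118 CPM in cKO-GFP and 365, 414 and 452 CPM in NC-GFP and fell by 1.80 ± 0.17 (adjusted p = 0.000768). Bcan, Ncan, Cspg5 and the link protein Hapln1 fell by 1.58 ± 0.16, 1.36 ± 0.20, 1.78 ± 0.17 and 2.41 ± 0.25 on the log2 scale. All 6 falling genes kept their calls with each library left out and in the 10-library fit. The 34 enzymes that make chondroitin and heparan sulfate chains had a median of 0.04, with Csgalnact1 lower and Dse higher, both lost without NC-GFP 1, 2 or 3 (adjusted p of 0.0516 to 0.110).

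Adhesion genes of synapses and axons fell in small numbers, where 2.55% of all genes tested were called lower. Of 12 IgLON and LGI genes 3 fell, with a median log2 fold change of −0.88, and 5 without cKO-GFP 2. Lsamp, an IgLON cell adhesion protein, had 40.8, 45.4 and 43.0 CPM in cKO-GFP and 115, 124 and 137 CPM in NC-GFP and fell by 1.54 ± 0.13 on the log2 scale (adjusted p = 0.000529). Ntm and Lgi1 fell by 1.53 ± 0.20 and 1.96 ± 0.21. Of 17 SLITRK, LRRTM, neurexin and neuroligin genes 3 fell, among them Slitrk2 and Nlgn1. Slitrk2, a leucine-rich synaptic organiser, had 13.2, 10.5 and 10.3 CPM in cKO-GFP and 40.2, 48.7 and 62.2 CPM in NC-GFP and fell by 2.151 ± 0.20 (adjusted p = 0.000768). Of the 6 leave-one-out fits, Nlgn1 was called only in that without cKO-GFP 2, with adjusted p of 0.0884 to 0.160 in the other 5.

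Receptors and transporters for GABA fell, 7 of 16 with none rising, against 2.55% of all genes tested called lower. Their median log2 fold change was −0.87. Gabrb1, a beta subunit of the GABA-A channel, had 15.5, 23.4 and 18.1 CPM in cKO-GFP and 70.6, 66.7 and 73.3 CPM in NC-GFP and fell by 1.89 ± 0.17 on the log2 scale (adjusted p = 0.000757). Slc6a11, the glial GABA transporter GAT-3, had 86.6, 85.4 and 94.5 CPM in cKO-GFP and 248.7, 410.0 and 354 CPM in NC-GFP and fell by 1.93 ± 0.19 (adjusted p = 0.000966). Gabrg1, a gamma subunit, fell by 1.71 ± 0.22. GABA calls numbered 5, 4 and 4 without NC-GFP 1, 2 and 3 and 5, 9 and 5 without cKO-GFP 1, 2 and 3.

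Glutamate genes fell in 5 of 28 cases with none rising, against 2.55% of all genes tested called lower. Without cKO-GFP 2 the glutamate list held 8 calls. Gria2, the AMPA receptor subunit that sets calcium permeability, had 32.2, 51.7 and 32.1 CPM in cKO-GFP and 126, 178 and 156 CPM in NC-GFP and fell by 1.99 ± 0.22 on the log2 scale (adjusted p = 0.00132). Grin2c, an NMDA receptor subunit, fell by 1.91 ± 0.26 and the uptake transporters Slc1a2 and Slc1a3 by 1.64 ± 0.23 and 1.32 ± 0.17. Slc7a11, the cystine-glutamate exchanger, had 34.4, 24.8 and 32.8 CPM in cKO-GFP and 106, 102 and 106 CPM in NC-GFP and fell by 1.77 ± 0.15 (adjusted p = 0.000529).

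Among 43 G protein-coupled receptors for amines, purines, peptides and lipids 9 fell and 2 rose, against 2.55% and 1.49% of all genes tested. Ednrb, the endothelin B receptor, had 29.04, 28.6 and 28.7 CPM in cKO-GFP and 88.5, 107 and 97.3 CPM in NC-GFP and fell by 1.76 ± 0.13 on the log2 scale (adjusted p = 0.000386). S1pr1, a sphingosine-1-phosphate receptor, had 72.7, 67.2 and 66.4 CPM in cKO-GFP and 219, 279.5 and 263 CPM in NC-GFP and fell by 1.89 ± 0.15 (adjusted p = 0.000386). Both sets of cKO-GFP values were narrow and far from those of NC-GFP. Gpr37l1, an orphan receptor of astrocytes, and Ntsr2, a neurotensin receptor, fell by 1.88 ± 0.17 and 2.01 ± 0.20. Of 42 potassium channels and sodium pumps 7 fell and 2 rose, with Kcnn3, a calcium-gated channel, at 5.58, 8.12 and 8.86 CPM in cKO-GFP and 24.7, 27.2 and 31.9 CPM in NC-GFP. Receptor calls in the first list numbered 7, 6 and 6 without NC-GFP 1, 2 and 3 and 8, 14 and 8 without cKO-GFP 1, 2 and 3, and channel calls 6, 4 and 4 without NC-GFP 1, 2 and 3 and 8, 11 and 6 without cKO-GFP 1, 2 and 3.

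Developmental signalling genes fell without a riser in the Wnt, Hedgehog and FGF lists. Over all genes tested 2.55% were called lower. In the Wnt list 8 of 42 fell, with a median log2 fold change of −0.16, and the calls numbered 5, 5 and 4 without NC-GFP 1, 2 and 3 and 7, 9 and 7 without cKO-GFP 1, 2 and 3. Fzd2, a Wnt receptor, had 5.03, 3.73 and 4.87 CPM in cKO-GFP and 16.6, 20.2 and 20.05 CPM in NC-GFP and fell by 2.06 ± 0.22 on the log2 scale (adjusted p = 0.00132). The ligands Wnt7a and Wnt7b fell by 1.95 ± 0.24 and 2.00 ± 0.26, and the R-spondin receptor Lgr6 by 2.17 ± 0.28. In the Hedgehog list 4 of 11 fell, Ptch1, Smo, Gli1 and Gli2, with a median of −0.80. Gli2, the activating transcription factor of the pathway, had 3.58, 6.06 and 6.05 CPM in cKO-GFP and 23.4, 23.05 and 22.7 CPM in NC-GFP and fell by 2.14 ± 0.24 (adjusted p = 0.00145). The receptor Ptch1 and the effector Gli1 lost their calls without NC-GFP 3 (adjusted p = 0.0610 and 0.0705), where the list kept 1 call. Smo lost its call in each leave-one-out fit but that without cKO-GFP 2, with adjusted p of 0.0731 to 0.155.

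In the FGF list 4 of 25 fell, with a median of −0.46, and calls numbered 2, 2 and 1 without NC-GFP 1, 2 and 3 and 4, 5 and 3 without cKO-GFP 1, 2 and 3. Fgfr1, a receptor of the pathway, had 20.05, 28.2 and 30.1 CPM in cKO-GFP and 54.0, 70.9 and 61.7 CPM in NC-GFP and fell by 1.25 ± 0.19 on the log2 scale (adjusted p = 0.00585). Egfr and its inhibitor Lrig1 fell by 1.6 ± 0.21 and 1.62 ± 0.17. These were the 2 calls among 16 EGF receptor and neuregulin genes, against 4.03% of all genes tested called in either direction.

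Transcription factors of neural progenitors and glia fell, 11 of 33 with none rising, against 2.55% of all genes tested called lower. Their median log2 fold change was −0.64. Rfx4, a winged-helix factor, had 3.10, 5.20 and 4.87 CPM in cKO-GFP and 19.3, 25.2 and 26.1 CPM in NC-GFP and fell by 2.42 ± 0.25 on the log2 scale (adjusted p = 0.00112). Sox1, a neural progenitor factor, had 12.6, 8.97 and 10.4 CPM in cKO-GFP and 31.6, 33.2 and 30.1 CPM in NC-GFP and fell by 1.57 ± 0.18 (adjusted p = 0.00163). Sox21 and Pou3f2 fell by 1.85 ± 0.24 and 1.68 ± 0.24. Of 18 tested genes with a Sox symbol 6 fell and none rose, 1 of them the noncoding Sox1ot. The list of 33 held 7, 5 and 5 without NC-GFP 1, 2 and 3 and 8, 16 and 6 without cKO-GFP 1, 2 and 3.

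Clock genes fell in part, 6 of 19 with none rising, against 2.55% of all genes tested called lower. Their median log2 fold change was −0.54. Rorb, a nuclear receptor that acts on clock promoters, had 12.7, 19.8 and 14.4 CPM in cKO-GFP and 56.6, 69.8 and 62.3 CPM in NC-GFP and fell by 2.01 ± 0.19 on the log2 scale (adjusted p = 0.000768). Per3, a repressor of the loop, had 13.8, 15.2 and 10.4 CPM in cKO-GFP and 33.3, 40.9 and 34.7 CPM in NC-GFP and fell by 1.47 ± 0.19 (adjusted p = 0.00275). The other 4 were the repressors Per2, Cry2 and Nr1d1 and the output factor Hlf. The activators Clock and Arntl did not pass the test, with log2 fold changes of −0.20 ± 0.16 and −0.33 ± 0.24. Without NC-GFP 1, 2 or 3 the list held 2 calls, Rorb and Per3, and without cKO-GFP 2 it held 10. The hour at which animals were taken is not given in the sources used here.

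**Figure D3:**
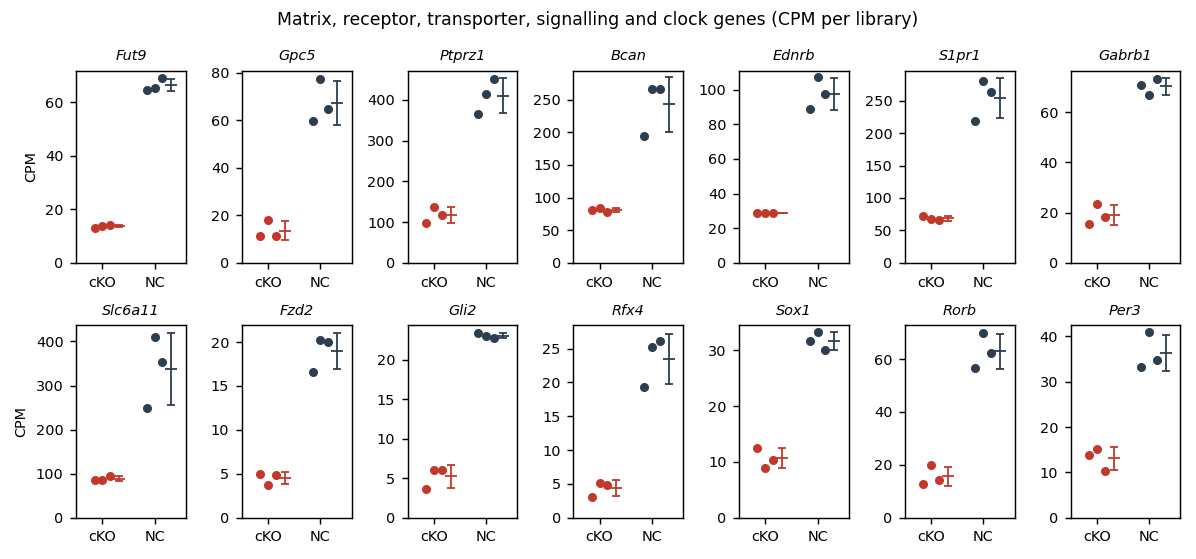
Each panel shows 1 gene, with CPM from 0 on the vertical axis, the 3 cKO-GFP libraries (cKO) in red on the left, the 3 NC-GFP libraries (NC) in dark grey on the right, and the mean with its SD beside each group. The 14 genes were picked from those called lower. In every panel the highest red point lies below the lowest grey point, as for 12.9% of all genes tested. For Fut9 the red points span 13.2 to 14.04 CPM against 64.7 to 69.1 CPM.

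Metabolic and hormone genes gave a few further calls, where 4.03% of all genes tested were called in either direction. Dio2, the deiodinase that activates thyroid hormone, had 9.44, 15.2 and 10.4 CPM in cKO-GFP and 68.0, 43.9 and 86.2 CPM in NC-GFP and fell by 2.50 ± 0.27 on the log2 scale (adjusted p = 0.00132). Acsl6, which activates long-chain fatty acids, fell by 1.71 ± 0.19, and Fads2, a desaturase, by 1.16 ± 0.18, 2 of the 4 calls among 41 fatty acid genes, which numbered 3, 2 and 2 without NC-GFP 1, 2 and 3 and 5, 9 and 4 without cKO-GFP 1, 2 and 3. Mfge8, a bridge between dying cells and phagocytes, had 45.9, 60.1 and 59.4 CPM in cKO-GFP and 173, 187 and 188 CPM in NC-GFP and fell by 1.73 ± 0.15 (adjusted p = 0.000529). Tril, an accessory protein of Toll-like receptors, and Myorg, a glycosidase of astrocytes, fell by 1.79 ± 0.14 and 2.01 ± 0.15. By symbol, 15 of 269 solute carriers (Slc) fell and 5 rose, which is 7.43% called in all, against 4.03% of all genes tested.

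**Figure D4:**
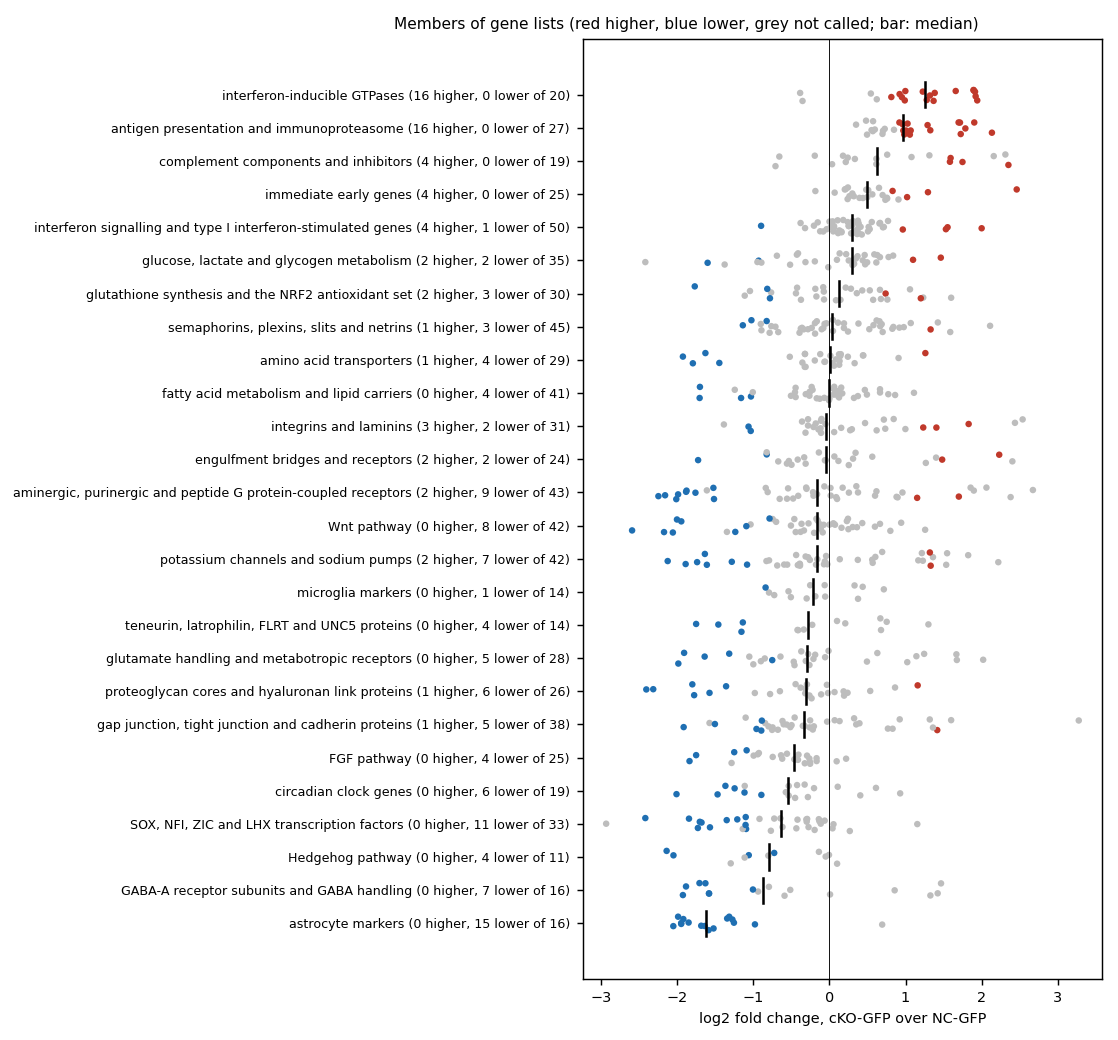
Rows are 26 gene lists, from the highest median at the top to the lowest at the bottom. They are the lists with at least 4 calls, cell type markers aside, and the astrocyte and microglia marker lists. Each point is the log2 fold change, cKO-GFP over NC-GFP, of 1 tested member. Red is called higher, blue is called lower, grey is not called and the black bar is the median, which runs from 1.25 for the interferon-inducible GTPases to −1.62 for the astrocyte markers.

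Some transcripts annotated inside longer genes fell, in part with the genes that contain them. Of 1452 tested genes of the types TEC (a GENCODE type that awaits experimental support) and sense intronic, 68 fell, or 4.68% against 2.55% of all genes tested, and 2 rose. Of the 68, 58 lie inside a tested protein-coding gene on the same strand, a share that was not counted over all 1452. For 30 of the 68 the host gene was itself called lower, spread over 18 hosts. Those 30 are of 90 tested that lie inside a gene called lower. Adgrb3, an adhesion receptor of synapses at chr1:25067476-25829707 on the minus strand, held 11 of them, with log2 fold changes of −3.56 to −2.52. Adgrb3 itself had 9.72, 17.3 and 11.1 CPM in cKO-GFP and 51.1, 51.8 and 53.5 CPM in NC-GFP and fell by 2.04 ± 0.22 (adjusted p = 0.00127). Reads from such transcripts and from their hosts may not be told apart, and these genes were chosen after their values were seen.

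Near-identical copies were called in opposite directions in 2 sets of genes, a pattern chosen after the values were seen. mt-Nd3, a complex I subunit encoded by the mitochondrial genome at chrM:9459-9806, had 19.4, 23.5 and 17.3 CPM in cKO-GFP and 135, 112 and 102 CPM in NC-GFP and fell by 2.54 ± 0.17 on the log2 scale (adjusted p = 0.000378). Gm28438, an unprocessed nuclear pseudogene at chr1:24612775-24613119 on the minus strand, had 104, 95.4 and 95.4 CPM in cKO-GFP and 19.8, 19.6 and 10.9 CPM in NC-GFP, a log2 fold change of 2.55 ± 0.22 (adjusted p = 0.000551). Their sum was 123, 119 and 113 CPM in cKO-GFP and 155, 132 and 113 CPM in NC-GFP, and the groups overlapped. The other 12 mitochondrially encoded protein genes were not called. The GENCODE transcripts of the pair align over 345 bases with 1 mismatch, T3C, counted from 1 at the 5′ end of mt-Nd3, so how reads were split between the pair is uncertain. Their first 60 bases are shown with the differing base in capitals.
mt-Nd3: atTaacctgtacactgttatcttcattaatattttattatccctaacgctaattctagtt
Gm28438: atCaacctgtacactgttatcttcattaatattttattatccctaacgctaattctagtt

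The second set was the ribosomal protein gene Rps3a1 on chr3 and its processed pseudogenes Rps3a2 on chr14 and Rps3a3 on chr13. Rps3a3 had 1.83, 0.544 and 2.55 CPM in cKO-GFP and 41.8, 50.8 and 42.8 CPM in NC-GFP and fell by 4.78 ± 0.43 on the log2 scale (adjusted p = 0.000809). Rps3a2 had 19.98, 12.9 and 29.4 CPM in cKO-GFP and 44.5, 47.9 and 40.4 CPM in NC-GFP. Rps3a1 had 286, 248 and 455 CPM in cKO-GFP and 138, 145 and 121 CPM in NC-GFP, a log2 fold change of 1.29 ± 0.22 (adjusted p = 0.0120). Rps3a1 and Rps3a3 align over 795 bases with 9 mismatches, and Rps3a1 and Rps3a2 over 792 bases with 4, so the split of reads among the 3 is uncertain. Rps3a1 lost its call without NC-GFP 1, 2 or 3 (adjusted p = 0.0671, 0.0658 and 0.107), and Rps3a2 without any of these 3 or without cKO-GFP 1 (adjusted p = 0.136, 0.164, 0.148 and 0.113). A stretch of 60 bases with 2 of the 9 differences in capitals shows how alike the copies are.
Rps3a1: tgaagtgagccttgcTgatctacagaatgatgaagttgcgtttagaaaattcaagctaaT
Rps3a3: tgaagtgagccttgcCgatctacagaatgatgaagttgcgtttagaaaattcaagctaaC

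**Figure D5:**
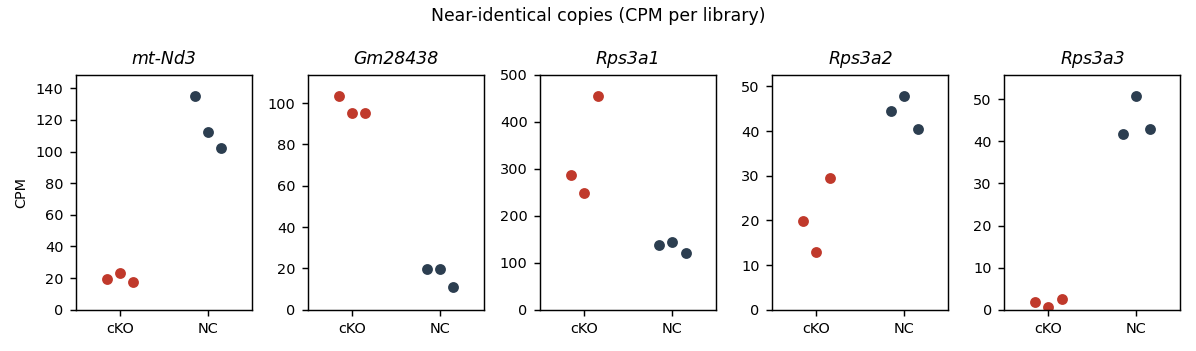
Each panel shows 1 gene of the 2 sets of near-identical copies, with CPM from 0 on the vertical axis, the 3 cKO-GFP libraries in red on the left and the 3 NC-GFP libraries in dark grey on the right. In the mt-Nd3 and Rps3a3 panels the red points lie at 17.3 to 23.5 and 0.544 to 2.55 CPM, below the grey ones, and in the Gm28438 and Rps3a1 panels they lie above.

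A few antibody genes were called. Ighv1-39, a heavy chain variable gene at chr12:114914599-114915032, had 2.86, 8.08 and 4.34 CPM in cKO-GFP and no count in the 3 NC-GFP libraries, at least 116-fold higher taking 3 counts in all of NC-GFP as the floor (adjusted p = 0.00233). That call ended in the 10-library fit (adjusted p = 0.238). Igkv13-85, a light chain variable gene chosen after its values were seen, went the other way, at 0.551, 2.06 and 1.14 CPM in cKO-GFP and 18.1, 13.6 and 18.5 CPM in NC-GFP. It fell by 3.75 ± 0.43 on the log2 scale (adjusted p = 0.00160), and its call too ended in the 10-library fit (adjusted p = 0.127). Only Ighv1-39, Igkv4-72 and the TEC gene Gm45786 had at least 1 CPM in every library of 1 group and at most 3 counts summed over the 3 libraries of the other. Ighv1-39 and Igkv4-72 were read in cKO-GFP and Gm45786 in NC-GFP. Igkv4-72, a light chain variable gene, had 5.96, 2.84 and 48.0 CPM in cKO-GFP and no count in NC-GFP, with cKO-GFP 3 highest, and did not pass the test (adjusted p = 0.227). It was called without cKO-GFP 3 (adjusted p = 0.00273), in the 10-library fit (0.0156), with the replicate block (0.00243) and by DESeq2 (1.49e-05). Constant region genes of antibodies summed to 1346, 1996 and 6835 CPM in cKO-GFP and 3420, 2460 and 644 CPM in NC-GFP, and the groups overlapped. Variable genes are near-identical to one another, and their counts are uncertain.

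Neighbours of the targeted gene Tardbp were counted apart. Within 10 Mb of its start on chromosome 4, 5 of 210 tested genes were called, 2.38% against 4.03% overall. They were Per3, Disp3 and Klhdc7a, which fell, and Kcnab2 and Tnfrsf14, which rose. Except for Per3, each lost its call without NC-GFP 2 or 3, with adjusted p of 0.0537 to 0.126 without NC-GFP 2 and 0.0510 to 0.179 without NC-GFP 3.

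Large housekeeping lists had positive medians with almost no calls. All 45 tested large-subunit and all 32 small-subunit ribosomal protein genes had a positive log2 fold change, with medians of 0.43 and 0.46, and only Rps3a1 was called, while 15 and 10 were called without cKO-GFP 2. Their sums were 7392 to 12430 CPM in cKO-GFP and 6264 to 7431 CPM in NC-GFP for the large subunit, with cKO-GFP 3 highest and cKO-GFP 2 within the NC-GFP range. For 74 nuclear-encoded respiratory chain subunits the median was 0.28 with no call by edgeR on all 6 libraries or by voom, 22 of them higher at an unadjusted p under 0.05, and 2 called by the DESeq2 test and 2 by edgeR without cKO-GFP 2. Among 25 immediate early genes, which neurons and microglia switch on within minutes of a stimulus, 4 rose, against 1.49% of all genes called higher. They were Egr3, Nr4a2, Ier3 and Klf6, and the median of the list was 0.50. None of these 4 was called in the 10-library fit, and without NC-GFP 1 all 4 calls ended (adjusted p = 0.0624 for Egr3, 0.0864 for Nr4a2, 0.0988 for Ier3 and 0.0712 for Klf6). The immediate early list held 0 and 1 calls without NC-GFP 2 and 3, and 4, 6 and 2 without cKO-GFP 1, 2 and 3. Tubb3, a neuronal tubulin, had 109.8, 112 and 82.9 CPM in cKO-GFP and 35.4, 42.8 and 36.4 CPM in NC-GFP, a log2 fold change of 1.41 ± 0.16 (adjusted p = 0.00145). It was the only one of 15 neuron markers called higher, and Map2, a microtubule-associated protein of neurons, the only one called lower. Of the 15 markers 11 had a positive log2 fold change, and the median was 0.83. At an unadjusted p under 0.05, 4 were higher and 1 lower, and the DESeq2 test called 4 of the 15. Map2 had 67.8, 91.4 and 59.6 CPM in cKO-GFP and 135, 133 and 134 CPM in NC-GFP and fell by 0.88 ± 0.17 (adjusted p = 0.0188). That call ended without NC-GFP 1, 2 or 3 (adjusted p = 0.0774, 0.0833 and 0.104), without cKO-GFP 1 (0.0565) and in the 10-library fit (0.101). Of 26 TDP-43 and related RNA-binding proteins only the stress granule protein Tia1 was called, lower by 0.65 ± 0.16, and that call ended without NC-GFP 1, 2 or 3 (adjusted p = 0.176, 0.0951 and 0.206) or without cKO-GFP 1 or 3 (0.0829 and 0.0919).

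Levels in the 4 cKO-mNLS libraries are set beside those of the same genes in the other 6, all scaled together, and with no comparison since any would share the libraries already compared. Serping1 had 135, 141, 93.7 and 50.4 CPM in cKO-mNLS, 83.0, 70.5 and 75.0 CPM in cKO-GFP, and 13.4, 17.4 and 12.99 CPM in NC-GFP. Fut9 had 48.6, 62.6, 48.0 and 40.4 CPM in cKO-mNLS, 13.5, 14.2 and 14.5 CPM in cKO-GFP, and 65.1, 66.0 and 69.6 CPM in NC-GFP. Ciita had 77.0, 127, 22.6 and 26.6 CPM in cKO-mNLS, 162, 196 and 259 CPM in cKO-GFP, and 36.6, 52.1 and 48.6 CPM in NC-GFP. The cKO-mNLS values lay above all of cKO-GFP for Serping1 in all but cKO-mNLS 4, between the other groups for Fut9 and on both sides of NC-GFP for Ciita. mt-Nd3 had 20.6 to 34.3 CPM in cKO-mNLS and Rps3a3 0.452 to 0.679 CPM, both outside the range of the NC-GFP libraries.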

How the data were processed

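RNA of sorted GFP-positive cells was sequenced from 6 libraries, cKO-GFP 1 to 3 and NC-GFP 1 to 3. Per the labels' protocols, RNA from pools of 3 to 4 animals was made into stranded SMART-Seq libraries; DRAGEN and GRCm38 (mm10) come from the submitters' processing notes. The authors deposited estimated counts per gene and TPM in 1 table with gene coordinates. The strand setting of the counting is not given in the sources used here. Estimated counts, of which 5.84% were not whole, were rounded and tested in edgeR 4.0.16 (R 4.3.3) with TMM scaling, its group-wise low-count filter, the robust quasi-likelihood F test and Benjamini-Hochberg adjustment over 18699 genes. Calls are adjusted p values below 0.05, the SE is the log2 fold change over the square root of F, and values per library are scaled CPM. TPM served only to compare marker sums. With 3 pools a group, p-values measure the spread between pools. The fit was tested on simulated data.

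The genes named are the 10 rising and 10 falling genes of smallest p with a log2 change of at least 1 and no overlap, leading members of lists with calls, and Tardbp, plus those said to be chosen after their values were seen. A few that the rule picked are not reported here. The comparison, the 61 gene lists (from memory) and the motifs were chosen with earlier results of these data known, and 4 marker lists and the CCAAT letters were added after seeing the data. Alternatives were limma 3.58.1 (voom), DESeq2 1.42.0, other filters and scalings, all 10 libraries, a replicate block and each library left out.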

Additional observations from a re-analysis of the deposited data

How the results depend on the processing

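Against 754 calls (278 higher, 476 lower), DESeq2's Wald test gave 1877 (895 and 982), voom 1249 (497 and 752), no low-count filter 1455 (674 and 781) and all 10 libraries 333 (108 and 225). Leaving out 1 library gave 197 to 2099 calls, 34 to 972 higher and 163 to 1127 lower, the fewest without NC-GFP 3 and the most without cKO-GFP 2. The cause was not tested. Size factors of DESeq2, a stricter filter, and leaving out mitochondrial or non-coding genes kept the count within 1.5 times.

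The 5 calls near Tardbp were 15 by DESeq2, 10 by voom, 11 unfiltered, 3 with 10 libraries, 3 within 5 Mb, 10 within 20 Mb and 1 to 22 with a library left out. The 3 genes read in 1 group alone were 9 at a minimum of 0.5 CPM and 6 to 14 with a library left out. The 67 genes high in a single library were 44 at a ratio of 6.

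Whether the replicate numbers pair the samples was not settled. Deviations of same-numbered libraries correlated at -0.06128, -0.08378 and -0.12445. Such deviations are taken from means of only 3 libraries, so these values cannot exclude a shared batch. A replicate block gave 479 calls, 147 of them higher. Of the 194 genes named by rule, none changed direction under any alternative, and 79 were no longer called with 10 libraries, 38 under the block and 104 without NC-GFP 3. Depth of 17164188 to 29204293 counts limits genes of a few CPM. Of 65 list medians, 11 changed sign under at least 1 alternative, 10 of them within 0.2 of 0 and the other that of natural killer and plasma cell markers (0.45, and -0.02 without NC-GFP 3).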

Other observations

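Genes read high in a single library, at 5 CPM or more and at least 4 times the highest of the other 5, numbered 4, 10 and 31 in cKO-GFP 1 to 3 and 9, 9 and 4 in NC-GFP 1 to 3. In cKO-GFP 3, 25 of the 31 were immunoglobulin genes, and in NC-GFP 1 and NC-GFP 2 they made up 8 of 9 each. Ighg2c, the constant region of an IgG class, reached 2443 CPM in cKO-GFP 3, against 119 and 379 CPM in cKO-GFP 1 and 2 and 259 to 549 CPM in NC-GFP. The 10 genes of cKO-GFP 2 included the beta-globin Hbb-bs at 229 CPM, against at most 51.2 CPM elsewhere. The choroid plexus gene Ttr, which encodes a thyroid hormone carrier, had 468, 2197 and 1330 CPM in cKO-GFP and 494, 287 and 207 CPM in NC-GFP (log2 fold change 2.02 ± 0.58, adjusted p = 0.118), and the 11 ependymal and choroid markers, 1 of them called, summed to 545, 2461 and 1472 CPM in cKO-GFP and 575, 336 and 257 CPM in NC-GFP.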
